A study of Mus musculus with 28 samples.

Results

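Cells of the 4 libraries collected at days 4.5 and 5 of embryoid body (EB) differentiation are described here, 4083 of the 31596 annotated cells of the series (12.9%). They were chosen by library: Eomes-KD day 4.5 (1722 cells) and WT day 4.5 (445 cells) form the first pair, and Eomes-KD day 5 (1177 cells) and WT day 5 (739 cells) the second. EBs are aggregates of differentiating mouse embryonic stem cells. All 4 libraries came from 1 line, Runx1 Venus Eomes mCherry-degron, whose EOMES protein carries a degron tag through which the small molecule dTAG-13 has it degraded. Eomes-KD EBs received 100 nM dTAG-13 and WT EBs, which carry the same tag and reporter, received DMSO. The study's methods give the treatment as day 3 to day 4, so that days 4.5 and 5 follow the removal of the compound, whereas the series' own description gives a window up to day 5. The return of EOMES protein could not be checked in these cells, because the table holds no protein or expression values. In the study's flow cytometry, the share of cells with EOMES fell after day 3 in the course of differentiation. By day 4.5 that assay detected no EOMES protein. The late days therefore cannot show what a return of EOMES would do.

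Each library is 1 sample of nuclei, so a pair has no replicate of its own. Day 4.5 came from the first experiment (exp1) and day 5 from the second (exp2), and the day cannot be told apart from the experiment. Eomes-KD and WT libraries of days 3.5 and 4 exist in both experiments and served as the measure of replicate spread. The median RNA count of a cell was 19181 (Eomes-KD) and 15518 (WT) at day 4.5, and 12141 (Eomes-KD) and 12898 (WT) at day 5. At most 4 cell barcodes were shared between any pair of the 4 libraries (0.674% of the smaller library or less). Intervals below are 95% Wilson intervals, or the counting intervals of a difference or ratio, and cover counting error only.

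Extraembryonic mesoderm arises from the primitive streak and gives rise to the yolk sac and the allantois. The yolk sac forms blood islands, which hold the first blood cells and endothelial cells, while the allantois forms the vascular core of the umbilical cord. EOMES is a T-box transcription factor that acts in the primitive streak and nascent mesoderm, and is known to be needed for yolk sac blood formation. Of the 12 annotated cell types, Early_Mes_EOd, HE_Precursor, HE (hematoendothelial cells) and Blood_Progenitor were taken as the yolk sac (YS) types. The codes EOd and EOi are those of the table and mark the early mesoderm types.

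The first question was whether any YS type came back after the compound was removed. YS types stayed scarce in Eomes-KD EBs on both days, and blood progenitors were nearly absent. Together the 4 types made up 32 of 1722 Eomes-KD cells at day 4.5 (1.86%), against 153 of 445 WT cells (34.4%). At day 5 they made up 6 of 1177 Eomes-KD cells (0.510%), against 163 of 739 WT cells (22.1%). The Eomes-KD share was lower by 32.5 points at day 4.5 (difference -32.5, interval -37.1 to -28.2) and by 21.5 points at day 5 (difference -21.5, interval -24.7 to -18.6). Averaged over both pairs, the difference was -27.0 ± 7.76 points (SD, n = 2 pairs). Replicate libraries of one condition and day, at days 3.5 and 4, were 4.54 to 8.13 points apart. With 2 pairs, an exact permutation test within pairs cannot give a two-sided p below 0.5, and none is given.

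**Figure D1:**
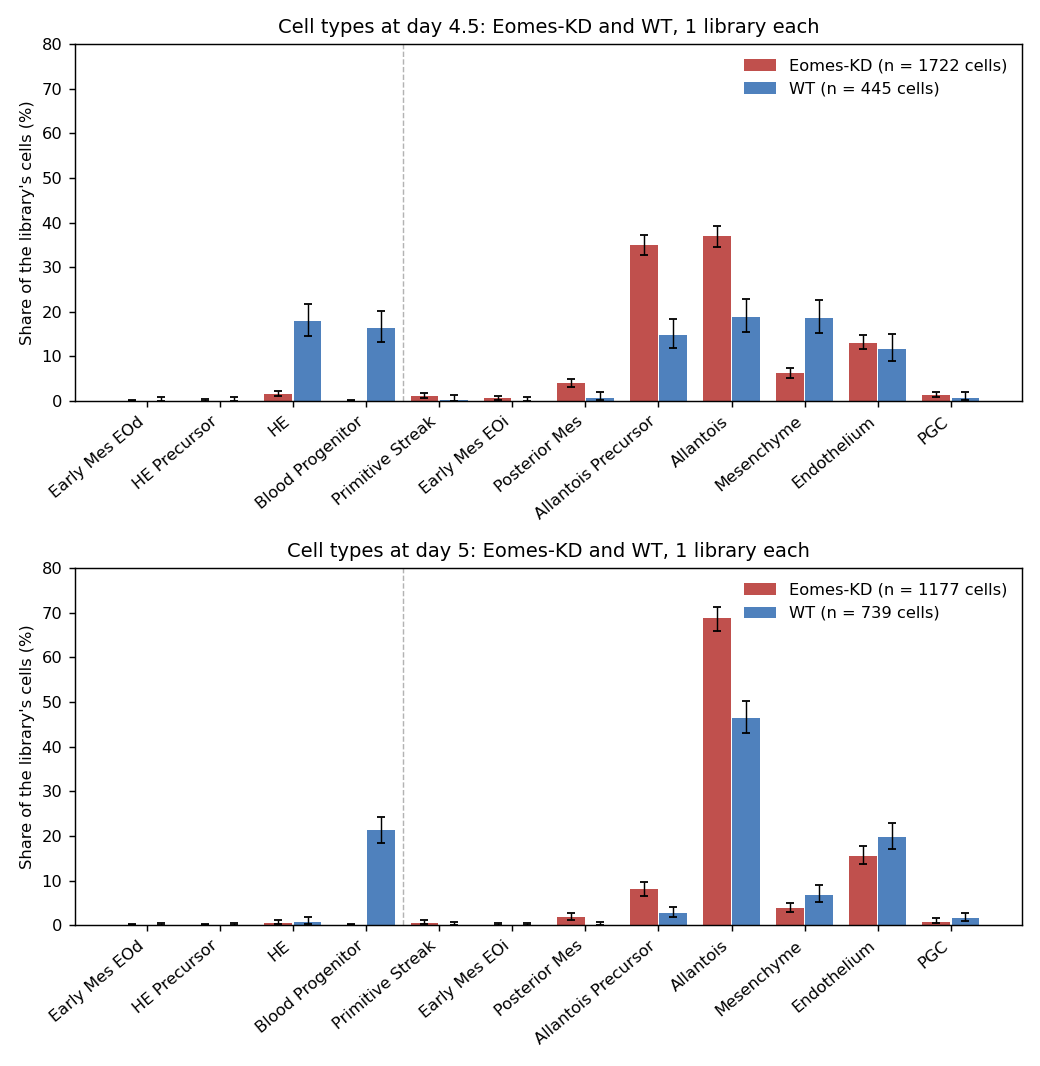
Share of each library's cells (%) in the 12 cell types at day 4.5 (upper panel) and day 5 (lower panel), with Eomes-KD bars left of WT bars and 95% Wilson intervals. The 4 YS types stand left of the dashed line, where Blood_Progenitor is at most 0.0581% in Eomes-KD and reaches 16.4% and 21.2% in WT.

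Within each experiment, the ratio between the conditions was wider after day 4 than at day 4. In exp1 the YS share of Eomes-KD EBs was 12.9% at day 4, against 42.7% in WT, which is 3.32-fold lower, and at day 4.5 it was 18.5-fold lower (interval 12.6 to 28.00). In exp2 it was 5.19% at day 4, against 34.6% in WT, which is 6.66-fold lower, and at day 5 it was 43.3-fold lower (interval 19.5 to 119.6). In points, the difference at day 4 was -29.8 in exp1 and -29.4 in exp2, so that by this measure the day 4.5 difference was wider and the day 5 difference narrower than at day 4, with WT itself at a lower share at day 5.

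**Figure D2:**
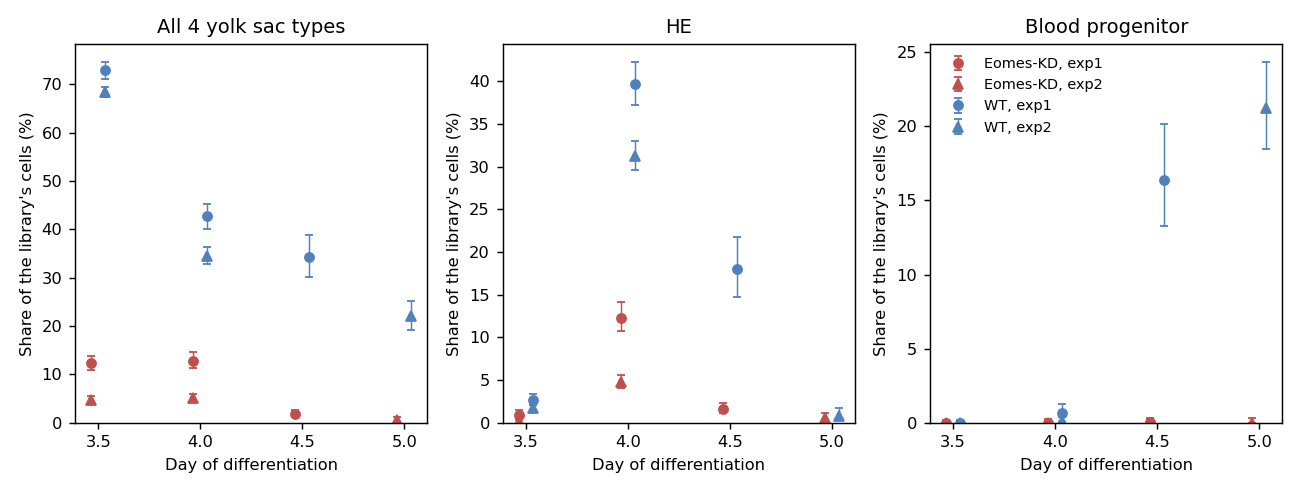
Share of cells (%) in all YS types (left), HE (middle) and Blood_Progenitor (right) against the day of differentiation, with 1 point per library (circles exp1, triangles exp2) and 95% Wilson intervals. HE was scarce at day 5 in both conditions (6 cells each), while Blood_Progenitor appeared in WT alone apart from 1 Eomes-KD cell.

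Blood_Progenitor, the type that holds the emerging blood cells, was nearly absent after Eomes-KD. It held 1 of 1722 Eomes-KD cells at day 4.5 (0.0581%), against 73 of 445 WT cells (16.4%, interval 13.3 to 20.1). At day 5 it held 0 of 1177 Eomes-KD cells (interval 0 to 0.325), against 157 of 739 WT cells (21.2%, interval 18.4 to 24.3). The Eomes-KD share was 0.00354 of the WT share at day 4.5 (interval 8.84e-05 to 0.0204) and at least 83.4-fold lower at day 5, with 3 cells in the library (0.255%) as the floor. The single Eomes-KD cell carried the label of hematoendothelial progenitors with a label score of 0.52 and mapped to E7.25. Its RNA count was 10218, below the library's median.

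HE, the hematoendothelial cells that come before blood progenitors on the YS path, held 28 of 1722 Eomes-KD cells at day 4.5 (1.63%, interval 1.13 to 2.34), against 80 of 445 WT cells (18.0%, interval 14.7 to 21.8). At day 5 it held 6 of 1177 Eomes-KD cells (0.510%), against 6 of 739 WT cells (0.812%), a ratio of 0.628 with an interval of 0.168 to 2.35. In the same experiment at day 4, HE had made up 4.79% of the Eomes-KD library, against 31.3% of the WT library. The day 5 values thus came close together at a share below the day 4 share in both conditions, and the Eomes-KD share was not higher than before removal. In exp1 the Eomes-KD share was 0.310 of the WT share at day 4 and 0.0904 of it at day 4.5 (interval 0.0566 to 0.141). In exp2 it was 0.153 of the WT share at day 4, so that the ratio came nearer to WT in exp2 and moved away from it in exp1.

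Early_Mes_EOd, the early mesoderm grouped with the YS types, held 1 Eomes-KD cell at day 4.5, against 0 WT cells, and 0 cells in both day 5 libraries. HE_Precursor held 2 Eomes-KD cells at day 4.5, against 0 WT cells, and again 0 cells in both day 5 libraries. These counts are under the floor of 3 cells in every library, so no difference was detectable in either type. The Early_Mes_EOd cell was labelled nascent mesoderm and mapped to E7.25. The HE_Precursor cells were labelled venous endothelium and endocardium, and both mapped to E8.5, the latest stage found.

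Cells per type were then tested with edgeR's quasi-likelihood test over the 12 libraries of days 3.5 to 5, in which the late libraries are assumed to vary like the replicated ones. Over both late days, 2 of 12 types passed the threshold (16.7%), Blood_Progenitor (lower in Eomes-KD, edgeR adjusted p = 0.0356) and Posterior_Mes (higher, log2 change 3.10, SE 0.713, edgeR adjusted p = 0.0356). Primitive_Streak (log2 change 2.11, SE 0.662) had an edgeR adjusted p of 0.0710 and HE (log2 change -2.06, SE 1.10) one of 0.231. The HE value was -0.67 without either day 4.5 library and -3.46 without either day 5 library. The call of Blood_Progenitor was lost when any of 8 of the 12 libraries was left out (every WT library and both late Eomes-KD libraries), and that of Posterior_Mes when any of 10 was left out (all but the Eomes-KD day 4 libraries). In those fits the edgeR adjusted p reached 0.142 for each. Of the cell types, 0 of 12 passed at day 4.5 alone (0%; 3 at an unadjusted p under 0.05 in edgeR, 1 after adjustment both in DESeq2 and with TMM factors, and 2 in edgeR with the experiment as a block). At day 5 alone, 0 of 10 passed (0%; 2 unadjusted in edgeR, and 1 after adjustment in DESeq2, with TMM factors and with the block).

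Whether the effect after removal differed from the effect at day 4 was tested in the same edgeR fit. No cell type passed (0 of 12, 0%; 1 at an unadjusted p under 0.05, and 0 in DESeq2 before or after adjustment). For HE, the only YS type with cells in each condition of each period in numbers that allow an estimate, the log2 effect changed by -0.01 (SE 0.828, edgeR adjusted p = 1.000), and its sign turned in 7 of 18 alternative fits. This value averages 2 late days that went opposite ways. The Eomes-KD to WT ratio of HE fell from 0.310 at day 4 to 0.0904 at day 4.5 in exp1. In exp2 it rose from 0.153 at day 4 to 0.628 at day 5, where each condition had 6 HE cells (interval 0.168 to 2.35). Blood_Progenitor had 0 Eomes-KD cells at day 4, against 14 WT cells, so no change of its effect could be estimated. The type with the low unadjusted p was Primitive_Streak (change 1.91, SE 0.783, edgeR adjusted p = 0.564).

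Early types were present at low shares. Posterior_Mes, posterior mesoderm, which the study places on the allantois path, held 68 Eomes-KD cells at day 4.5 (3.95%), against 3 WT cells (0.674%), and 21 Eomes-KD cells at day 5 (1.78%), against 1 WT cell (0.135%). Primitive_Streak held 20 Eomes-KD cells (1.16%), against 1 WT cell (0.225%), at day 4.5, and 6 (0.510%), against 1 (0.135%), at day 5. Early_Mes_EOi held 10 Eomes-KD cells, against 0 WT cells, at day 4.5 and 1, against 0, at day 5. With Early_Mes_EOi included, the 3 types made up 5.69% in Eomes-KD, against 0.899% in WT, at day 4.5, and 2.38%, against 0.271%, at day 5. Of the Posterior_Mes cells of Eomes-KD EBs, 51 of 68 and 16 of 21 carried the lateral plate mesoderm label. Of the Primitive_Streak cells, only 2 of 20 at day 4.5 and 0 of 6 at day 5 were labelled primitive streak, and non-neural ectoderm was the most frequent label (10 of 20 and 2 of 6), so that this type's name was not borne out by its labels at these days.

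The allantois types made up most of the Eomes-KD cells. Allantois held 635 Eomes-KD cells (36.9%), against 84 WT cells (18.9%), at day 4.5, and 809 (68.7%), against 344 (46.5%), at day 5. Allantois_Precursor held 602 (35.0%), against 66 (14.8%), at day 4.5, and 95 (8.07%), against 20 (2.71%), at day 5. The edgeR test did not call either type (Allantois log2 change 0.76, SE 0.897, adjusted p = 0.658; Allantois_Precursor 1.41, SE 0.756, adjusted p = 0.231). Shares add up to the whole, so the absence of YS cells raises every other share: with YS types left out of the total, Allantois was 37.6% in Eomes-KD, against 28.8% in WT, at day 4.5, and 69.1%, against 59.7%, at day 5. Within the allantois types, the split was close to equal at day 4.5 (Allantois 51.3% in Eomes-KD and 56.0% in WT, difference -4.67 points, interval -12.9 to 3.798). At day 5 Allantois was 89.5% of them in Eomes-KD and 94.5% in WT (difference -5.01, interval -7.90 to -1.63).

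Mesenchyme held 108 Eomes-KD cells (6.27%), against 83 WT cells (18.7%), at day 4.5, and 45 (3.82%), against 51 (6.90%), at day 5 (log2 change over both days -1.21, SE 0.706, edgeR adjusted p = 0.231). Endothelium held 225 Eomes-KD cells (13.1%), against 52 WT cells (11.7%), at day 4.5, and 184 (15.6%), against 147 (19.9%), at day 5. Its difference was 1.38 points at day 4.5 (interval -2.26 to 4.53) and -4.26 at day 5 (interval -7.87 to -0.770). With YS types left out of the total, Endothelium was 13.3% in Eomes-KD, against 17.8% in WT, at day 4.5. At day 5 it was then 15.7%, against 25.5%, so that it was lower in Eomes-KD on both days. PGC, the germ cell type, held 22 Eomes-KD cells (1.28%), against 3 WT cells (0.674%), at day 4.5, and 10 (0.850%), against 12 (1.62%), at day 5. This type was taken by the authors from the transferred label of the original atlas, and all 47 late cells of the type carry that label.

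The 18 MOFA clusters were made by the authors from a factor analysis that joins RNA and chromatin of each nucleus. Per the study's methods, the cell types other than PGC were formed by grouping such clusters, so a match between them was built in. Among late cells, Allantois, Allantois_Precursor, Endothelium, Mesenchyme, HE and Blood_Progenitor had the same counts as clusters 10, 12, 15, 5, 3 and 17. Cluster 17 had the counts of Blood_Progenitor in each library of the fit, so its test repeats that of the type. In edgeR, 2 of 16 clusters passed over both days (12.5%): cluster 17, which holds the blood progenitors (lower, adjusted p = 0.0478), and cluster 13 (higher, adjusted p = 0.0478). With the experiment as a block, 4 of 16 passed, cluster 3 (HE, lower) and cluster 12 (Allantois_Precursor, higher) in addition. Cluster 13 is 1 of the clusters of posterior mesoderm. It held 26 Eomes-KD cells (1.51%), against 0 WT cells, at day 4.5 (at least 2.24-fold higher, with 3 WT cells in the library as the floor), and 13 (1.10%), against 0, at day 5 (at least 2.72-fold higher). The other, cluster 4, held 44 Eomes-KD cells (2.56%), against 4 WT cells (0.899%), at day 4.5, and 10 (0.850%), against 1 (0.135%), at day 5. Cluster 13 made up 38.2% of Eomes-KD posterior mesoderm at day 4.5 and 61.9% at day 5, against 0 of 3 and 0 of 1 cells in WT. At day 4 it had made up 30.7% (exp1) and 44.1% (exp2) of posterior mesoderm in Eomes-KD, against 32.8% and 45.7% in WT. The 3 and 1 WT cells of the late days are too few to compare these shares. The call of cluster 13 was lost when any of 10 of the 12 libraries was left out (all but the Eomes-KD day 4 libraries, edgeR adjusted p up to 0.230). That of cluster 17 was lost when any of 6 was left out (both WT day 4 and all 4 late libraries, edgeR adjusted p up to 0.190).

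The extended labels, transferred by the authors from a mouse gastrulation atlas, gave a second view of the same cells. Per the study's methods, transferred labels were also used in naming the cell types, so this view is not independent of the types. Labels of blood (blood progenitors, EMP, erythroid, MEP and megakaryocyte progenitors) were on 1 of 1722 Eomes-KD cells at day 4.5, against 75 of 445 WT cells (16.9%), and on 0 of 1177 at day 5, against 161 of 739 (21.8%). The label of blood progenitors alone was on 61 WT cells at day 4.5 (13.7%) and 49 at day 5 (6.63%), EMP on 11 (2.47%) and 23 (3.11%), and erythroid on 1 (0.225%) and 68 (9.20%), with 1 Eomes-KD cell, of EMP, among the 3 labels. EMP denotes erythro-myeloid progenitors, and MEP the shared progenitors of megakaryocytes and red cells. The label of hematoendothelial progenitors was on 17 Eomes-KD cells (0.987%), against 58 WT cells (13.03%), at day 4.5, and on 1 (0.0850%), against 46 (6.22%), at day 5. The ratio was 0.0757 at day 4.5 (interval 0.0413 to 0.132) and 0.0136 at day 5 (interval 0.000338 to 0.0799). The 17 Eomes-KD cells lay in Endothelium (9), HE (6), Blood_Progenitor (1) and Posterior_Mes (1), and the day 5 cell in HE. The 46 WT cells of day 5 lay mostly in Allantois (20) and Endothelium (15). Median label scores were higher in Eomes-KD (0.96 at day 4.5 and 1.00 at day 5) than in WT (0.72 and 0.76), and the part of this gap in the label differences was not tested. In edgeR, 0 of 23 labels passed over both days (0%), with 6 at an unadjusted p under 0.05. The lowest edgeR adjusted p was 0.115, for hematoendothelial progenitors (log2 change -4.91, SE 1.22). DESeq2 called that label alone, and edgeR with the experiment as a block called 3 labels, all lower in Eomes-KD: hematoendothelial progenitors, blood progenitors and EMP.

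The label of allantois was on 1043 Eomes-KD cells (60.6%), against 106 WT cells (23.8%), at day 4.5, and on 872 (74.1%), against 282 (38.2%), at day 5. Lateral plate mesoderm was on 369 (21.4%), against 98 (22.0%), at day 4.5, and on 105 (8.92%), against 109 (14.7%), at day 5. Venous endothelium was on 3.66% in Eomes-KD, against 5.84% in WT, at day 4.5, and on 2.89%, against 6.77%, at day 5. Endocardium was on 2.79% in Eomes-KD, against 0.674% in WT, at day 4.5, and on 2.97%, against 3.38%, at day 5. Allantois endothelium was on 6.10% in Eomes-KD, against 10.6% in WT, at day 4.5, and on 8.75%, against 6.36%, at day 5. For endocardium and allantois endothelium the order of the conditions thus differed between the days. The mesenchyme label was on 0 Eomes-KD cells, against 15 WT cells (3.37%), at day 4.5 and on no late cell at day 5.

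The original labels of the same atlas drew the line elsewhere. The original label of hematoendothelial progenitors was on 129 Eomes-KD cells (7.49%), against 90 WT cells (20.2%), at day 4.5, and on 126 (10.7%), against 91 (12.3%), at day 5, a difference of -1.61 points with an interval of -4.65 to 1.28. Of those cells, 77.5% in Eomes-KD, against 48.9% in WT, carried the extended label of allantois endothelium at day 4.5, and 80.95%, against 47.3%, at day 5. The extended label of hematoendothelial progenitors was on 13.2% of them in Eomes-KD, against 44.4% in WT, at day 4.5, and on 0.794%, against 38.5%, at day 5. The original blood labels were on 0 Eomes-KD cells of both days, against 91 WT cells (20.4%) at day 4.5 and 169 (22.9%) at day 5. By cell type, 117 of the 126 Eomes-KD cells with the original hematoendothelial label at day 5, against 52 of the 91 WT cells, lay in Endothelium, and 4, against 4, in HE.

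Within Endothelium, cells of Eomes-KD EBs carried the allantois endothelium label more often at day 5 and the hematoendothelial label less often in both pairs. Allantois endothelium was on 87 of 225 Eomes-KD cells (38.7%), against 18 of 52 WT cells (34.6%), at day 4.5, and on 97 of 184 (52.7%), against 41 of 147 (27.9%), at day 5, a difference of 24.8 points (interval 14.3 to 34.5). Hematoendothelial progenitors were on 9 of 225 (4.00%), against 9 of 52 (17.3%), at day 4.5, and on 0 of 184, against 15 of 147 (10.2%), at day 5. EMP was on 0 of 184 Eomes-KD endothelial cells at day 5, against 12 of 147 in WT (8.16%). Venous endothelium was on 58 of 225 (25.8%), against 20 of 52 (38.5%), at day 4.5, and on 33 of 184 (17.9%), against 48 of 147 (32.7%), at day 5. Endocardium was on 47 of 225 (20.9%), against 2 of 52 (3.85%), at day 4.5, and on 35 of 184 (19.02%), against 25 of 147 (17.01%), at day 5. The median label score of endothelial cells was 0.76 (Eomes-KD) and 0.60 (WT) at day 4.5, and 0.84 and 0.64 at day 5, so that WT labels were less certain in both pairs. No extended label of the late cells names a yolk sac endothelium.

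**Figure D3:**
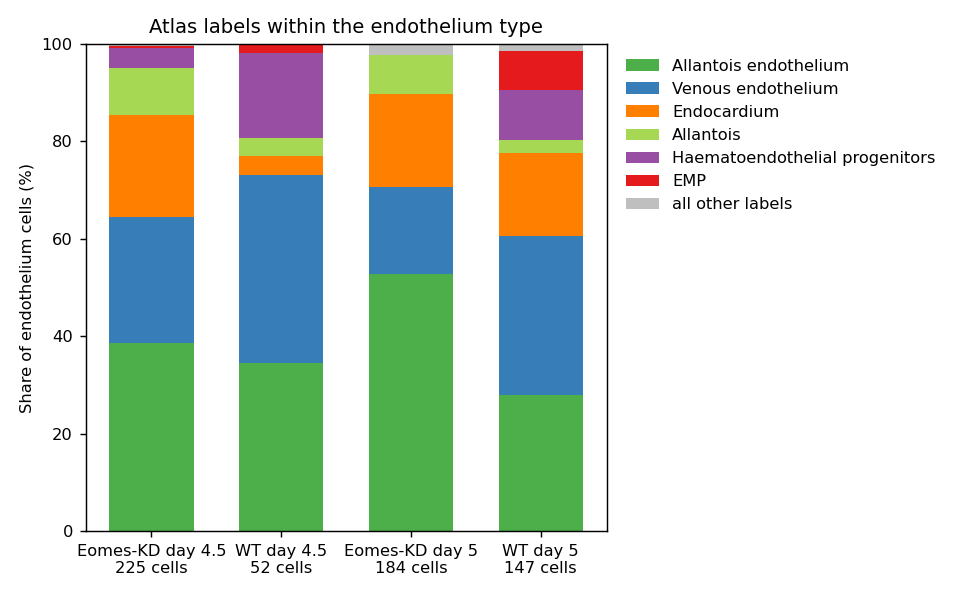
Share (%) of the cells of the Endothelium type carrying each atlas label, stacked, for Eomes-KD and WT at day 4.5 and day 5 (cell numbers under the bars). Allantois endothelium is 52.7% in Eomes-KD and 27.9% in WT at day 5, and the hematoendothelial label is wider in both WT bars.

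Within HE at day 4.5, 17 of 28 Eomes-KD cells were labelled allantois endothelium (60.7%), against 24 of 80 WT cells, a difference of 30.7 points (interval 9.48 to 48.8). The hematoendothelial label was on 6 of 28 (21.4%), against 38 of 80 (47.5%), a difference of -26.1 points (interval -41.6 to -5.10). No HE cell of Eomes-KD carried a blood label, against 2 WT cells labelled blood progenitors and 7 labelled EMP. At day 5, 4 of 6 Eomes-KD cells, against 1 of 6 WT cells, were labelled allantois endothelium, and 1 of 6, against 4 of 6, hematoendothelial progenitors. The direction was the same in both pairs, with few cells at day 5. Within Blood_Progenitor, WT cells at day 4.5 were mostly labelled blood progenitors (59 of 73, 80.8%), and at day 5 they were labelled erythroid (68 of 157, 43.3%) or blood progenitors (48 of 157, 30.6%). No comparison with Eomes-KD was possible there.

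Within Allantois, the allantois label was on 629 of 635 Eomes-KD cells (99.1%), against 68 of 84 WT cells (80.95%), at day 4.5, and on 791 of 809 (97.8%), against 268 of 344 (77.9%), at day 5. Lateral plate mesoderm was the main other label of WT cells (13 of 84 and 46 of 344, against 5 of 635 and 16 of 809 in Eomes-KD). At day 5, 0 of 809 Eomes-KD allantois cells carried the hematoendothelial label, which allows up to 0.371%, against 20 of 344 WT allantois cells (5.81%). Within Allantois_Precursor, the allantois label was on 389 of 602 Eomes-KD cells (64.6%), against 35 of 66 WT cells (53.03%), at day 4.5 (difference 11.6 points, interval -0.593 to 24.03), and on 64 of 95, against 7 of 20, at day 5 (difference 32.4 points, interval 8.49 to 51.3). Within Mesenchyme, lateral plate mesoderm was on 92 of 108 Eomes-KD cells (85.2%), against 56 of 83 WT cells (67.5%), at day 4.5, and on 38 of 45 (84.4%), against 47 of 51 (92.2%), at day 5. The mesenchyme label was on 0 of 108 Eomes-KD cells, against 14 of 83 WT cells (16.9%), at day 4.5.

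Cells of Eomes-KD EBs mapped to later atlas stages on average. The mean mapped embryonic day was 8.06 in Eomes-KD and 7.94 in WT at day 4.5, and 8.17 and 7.99 at day 5, a mean difference of 0.152 ± 0.0449 days (SD, n = 2 pairs). Replicate libraries of one condition at days 3.5 and 4 were 0.00892 to 0.118 days apart. The difference was barely above the widest of these gaps at day 4.5 (0.120) and further above it at day 5 (0.184). Such gaps are within 1 condition and do not measure how far a difference between conditions varies. At day 4, before removal, the mean had been 7.89 in Eomes-KD, against 7.55 in WT, in exp1 (difference 0.335) and 7.83, against 7.67, in exp2 (difference 0.162). E8.25 or later was the mapped stage of 45.6% of Eomes-KD cells, against 28.1% of WT cells, at day 4.5, and of 60.7%, against 40.2%, at day 5. The distributions were not simply shifted: at day 4.5, E8.25 held 39.5% in Eomes-KD, against 13.3% in WT, while E8.5 held 6.10%, against 14.8%. At day 5 E8.5 held 22.8% in Eomes-KD, against 12.04% in WT. E7.25 or earlier held 3.31% in Eomes-KD, against 6.74% in WT, at day 4.5, and 0.510%, against 13.3%, at day 5. The stage score, the share of nearest atlas cells behind the call, had a median of 0.44 in both Eomes-KD and 0.40 in both WT libraries.

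**Figure D4:**
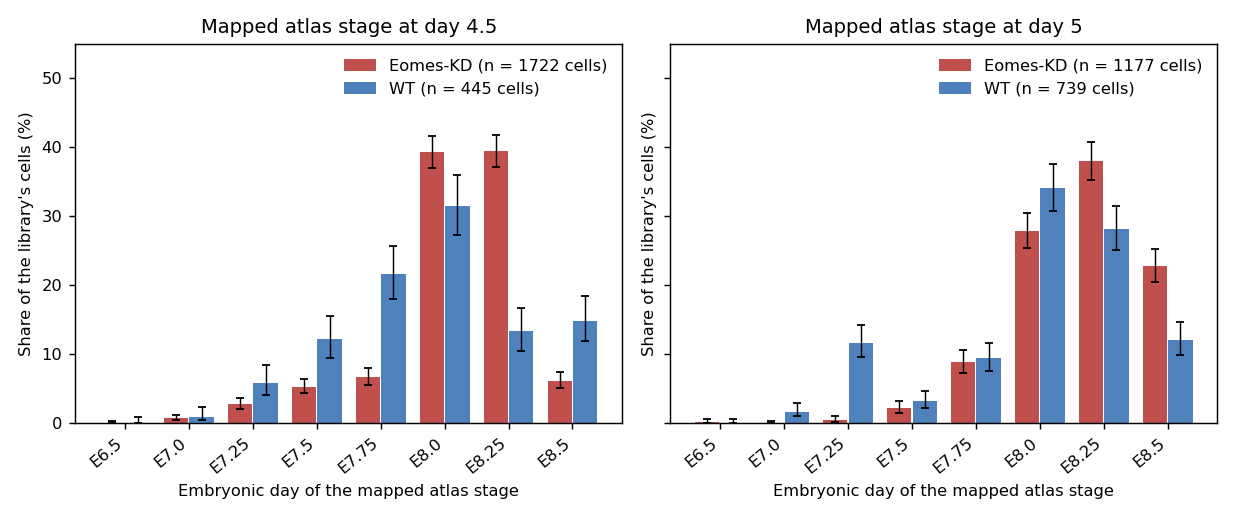
Share of each library's cells (%) by mapped embryonic day of the atlas, at day 4.5 (left) and day 5 (right), with Eomes-KD bars left of WT bars and 95% Wilson intervals. E8.25 is the most frequent stage of Eomes-KD cells in both panels (39.5% and 38.0%), and WT day 5 has a separate rise at E7.25 (11.6%).

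The stage difference at day 4.5 depended on the weight given to the types and on the certainty of the stage call. Among cells with a stage score of 0.5 or more it was 0.0540 days at day 4.5, within the gaps between replicate libraries, and 0.178 at day 5. With each cell type weighted by its mean share over both libraries of a pair, the difference was -0.000735 days at day 4.5 and 0.231 days at day 5. This weighting set no minimum number of cells per type. At day 4.5 the 1 Eomes-KD cell of Blood_Progenitor, at E7.25, thus stood for its type against a WT mean of 7.93 (73 cells). The weighted value without that type was not calculated, so the day 4.5 value cannot show that the difference vanishes within types. Within types of 20 or more cells in both libraries, Eomes-KD cells mapped later than WT cells in Allantois (by 0.0832 and 0.225 days at days 4.5 and 5), Allantois_Precursor (0.0788 and 0.257) and Endothelium (0.152 and 0.190), and in HE at day 4.5 (0.143). Mesenchyme went opposite ways (-0.142 at day 4.5 and 0.423 at day 5). At day 5 some WT cells of these types mapped to E7.25 or earlier. In Allantois 0 of 809 Eomes-KD cells did so, against 50 of 344 WT cells (14.5%). In Mesenchyme the numbers were 0 of 45, against 26 of 51 (51.0%), and in Allantois_Precursor 2 of 95, against 7 of 20. In WT Allantois those 50 cells had a median label score of 0.48 and a median doublet score of 0.46, against 0.92 and 0.34 in the rest of WT Allantois. The 7 early-mapped cells of WT Allantois_Precursor differed the same way (label score 0.60, against 0.72 in the rest, and doublet score 0.40, against 0.27). So did the 7 of 147 in WT Endothelium (label score 0.56, against 0.64, and doublet score 0.73, against 0.275). In WT Mesenchyme the 26 early-mapped cells had a label score of 0.70, against 0.72 in the rest, and a doublet score of 0.205, against 0.20. The part of these scores in the stage difference was not tested.

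Stage by stage, the types differed in different ways. Allantois cells of Eomes-KD EBs lay mostly at E8.25 at day 4.5 (455 of 635, 71.7%), against 26 of 84 in WT, whose cells spread to E8.0 (25 of 84) and E8.5 (18 of 84, against 26 of 635 in Eomes-KD). At day 5 the E8.5 share was 167 of 809 in Eomes-KD (20.6%), against 19 of 344 in WT (5.52%), a difference of 15.1 points (interval 11.2 to 18.6). For E8.5 allantois cells the order of the conditions thus differed between the days. Allantois_Precursor cells lay mostly at E8.0, with 441 of 602 in Eomes-KD (73.3%), against 33 of 66 in WT, at day 4.5, and 75 of 95 (78.9%), against 9 of 20, at day 5. In Endothelium the E8.5 share was 75 of 225 in Eomes-KD (33.3%), against 15 of 52 in WT (28.8%), at day 4.5, and 93 of 184 (50.5%), against 42 of 147 (28.6%), at day 5, where the difference was 21.97 points (interval 11.4 to 31.8). In HE at day 4.5, E8.25 held 6 of 28 Eomes-KD cells (21.4%), against 2 of 80 WT cells, and E8.5 held 1 of 28, against 8 of 80. In Mesenchyme at day 4.5, E8.5 held 1 of 108 Eomes-KD cells, against 17 of 83 WT cells (20.5%), and at day 5 E8.25 held 7 of 45, against 0 of 51.

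**Figure D5:**
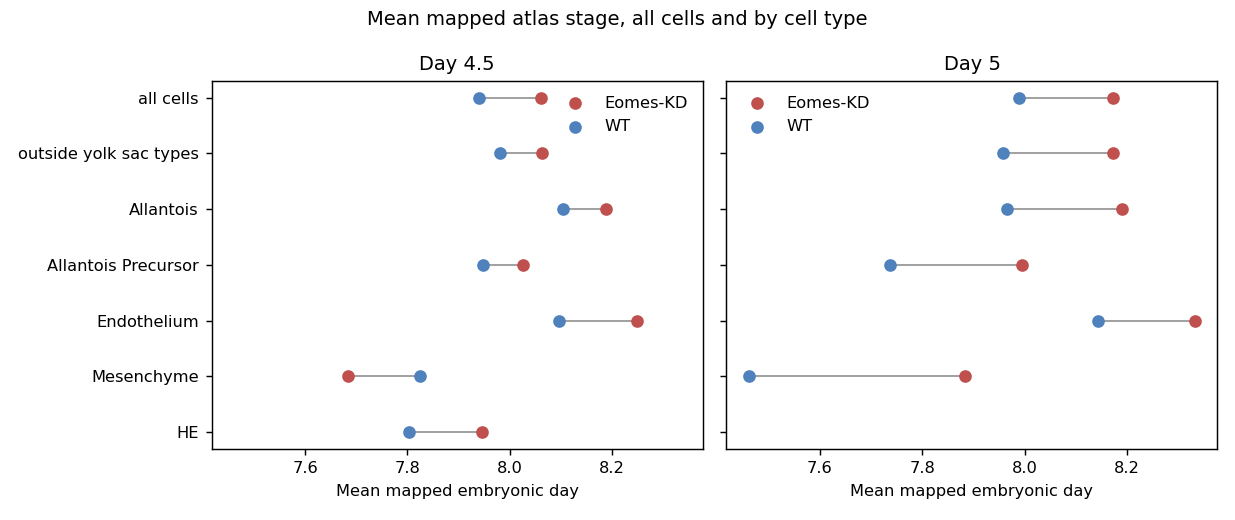
Mean mapped embryonic day of Eomes-KD (red) and WT (blue) cells, for all cells, cells outside the YS types and each cell type with 20 or more cells in both libraries, at day 4.5 (left) and day 5 (right). Eomes-KD lies to the right of WT except in Mesenchyme at day 4.5 (-0.142 days).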

How the data were processed

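Per the study's methods, the authors profiled nuclei with the 10x multiome assay, processed reads with Cell Ranger ARC 2.0.1 on mm10, filtered cells, joined RNA and chromatin in MOFA factors, clustered the cells and transferred atlas labels library by library. The deposited table has 1 line per cell, and 16 of its 28 columns were used. Its RNA counts and genes per cell are unnormalized counts that the authors left after filtering. Percent of mitochondrial and of ribosomal RNA is given as the authors calculated it. The doublet score was deposited as the authors' filter left it. Label and stage scores are a fraction of nearest atlas cells, deposited with the labels.

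Numbers of cells were compared in R 4.3.3 with edgeR 4.0.16 (quasi-likelihood, common dispersion, 1 group per day and condition, 12 libraries, 4 residual degrees of freedom, annotated cells as library size, features with 10 or more cells over the libraries, Benjamini-Hochberg within a family, threshold 0.05). Folds fitted to features with an empty library depend on the prior count and are not given. The experiment number in the labels pairs libraries. In the deviations between experiments, Eomes-KD and WT correlated by 0.0968 at day 3.5 and 0.816 at day 4 (Pearson's r across 12 types). DESeq2 1.42.0, TMM factors, the block and leaving out each library were alternatives. The test was tried on simulated data with a smaller spread between libraries than the fits found. The fitted common dispersion was 0.204 for cell types, 0.239 for clusters and 0.558 for labels. How the test behaves at that spread was not simulated. A narrower filter was added after the fits had been seen. The types, lists and tests were chosen with earlier results of these data known. Every cell type is described, and a cluster or label is named if it held 2% of a late library or passed (10% within a type). Per the study's methods, the experiments were separate EB differentiations of the same line. Python 3.11.15 was used for tables and figures.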

Additional observations from a re-analysis of the deposited data

Results flagged for a closer look

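Some effects had opposite directions in the 2 pairs. The pairs differ in experiment as well as in day, which cannot be told apart. The Endothelium share was higher in Eomes-KD by 1.38 points at day 4.5 and differed by -4.26 points at day 5. With YS types left out of the total, its directions were not opposite. It then differed by -4.49 points at day 4.5 (interval -9.53 to -0.182) and by -9.81 at day 5 (interval -14.0 to -5.77). The PGC share differed by 0.603 points at day 4.5 and by -0.774 points at day 5, with 3 to 22 cells per library. For both shares edgeR's test of the day 5 effect against the day 4.5 effect did not pass (0 of 12 types, 0%; 0 at an unadjusted p under 0.05 in edgeR and in DESeq2; edgeR adjusted p = 1.000 for each). The mean mapped day of Mesenchyme differed by -0.142 days at day 4.5 and by 0.423 days at day 5, a difference between pairs that was not tested. Other such differences are given in points, at day 4.5 and then at day 5. The share of cells labelled allantois endothelium differed by -4.46 and 2.39, and that of endocardium by 2.11 and -0.409 (edgeR adjusted p = 1.000 for the difference between the pairs, for each label). For the stages and the shares within a type the difference between the pairs was not tested. The share of cells mapped to E8.0 differed by 7.80 and -6.23, and to E8.5 by -8.73 and 10.7. Within Allantois, the E8.5 share differed by -17.3 and 15.1. Within Mesenchyme, the lateral plate mesoderm label differed by 17.7 and -7.71, E7.25 by 3.51 and -47.1, E7.75 by -1.49 and 9.93, E8.25 by -3.53 and 15.6, and E8.5 by -19.6 and 6.67.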

How the results depend on the processing

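Over both late days, 2 of 12 cell types passed. The number was 1 with cells above their library's median RNA count and with YS types left out of the total (Blood_Progenitor then had no test), 5 with only the 4 late libraries and the day as a replicate block, and 0 to 2 when 1 library was left out. It stayed at 2 with the experiment as a replicate block, TMM, DESeq2, no filter and the narrower filter. For MOFA clusters, 2 passed. The number was 4 with the experiment as a replicate block, 3 with the late libraries only, 1 in the deeper cells and 0 to 2 when 1 library was left out. For atlas labels, 0 passed. The number was 3 with the replicate block, without a filter and with label scores of 0.5 or more, 1 with DESeq2, the deeper cells or the original label (Mixed_mesoderm), and 7 with the late libraries only. The cause of these shifts was not tested. By design, leaving out a library of day 3.5 or 4 leaves fewer to measure the spread. Leaving out a late library instead leaves its day without a pair, so that the late effect rests on the other day alone. TMM moved the median log2 change by 0.84 for cell types (positive in 9 of 12, against 7 without), by 0.91 for clusters and by 1.64 for labels, and with it Endothelium (0.75) and PGC (0.83) turned positive, against -0.09 and -0.01. Endothelium also turned with the deeper cells (0.38) and without either day 5 library (0.16; range when 1 library was left out -0.35 to 0.16), and PGC without either day 5 library (0.92; range -0.93 to 0.92). The change of the HE effect after day 4 turned positive with the replicate block (0.17), TMM (0.65), the deeper cells (0.27), and without Eomes-KD day 4 exp1 (0.82), WT day 4 exp2 (0.16) or either day 4.5 library (1.39; range -1.40 to 1.39). The replicate block changed no other call over both days. Over the alternatives the log2 change ranged from -3.46 to -0.67 for HE, from -1.68 to -0.37 for Mesenchyme, from 0.30 to 1.60 for Allantois and from -7.31 to -0.82 for the hematoendothelial label.

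The YS share difference was -27.0 points, and -32.7 in the deeper cells and -28.4 by atlas labels of blood and hematoendothelial cells (-32.5 and -21.5 for a single pair). The stage difference was 0.152 days and 0.115 to 0.154 under the alternatives (0.120 and 0.184 for a single pair). At day 4.5 it was 0.0540 with a stage score of 0.5 or more and -0.000735 with weighted types. In that weighted value 1 Eomes-KD cell stood for Blood_Progenitor. WT day 4.5, with 445 cells, limits detection most: 0 cells there allow up to 0.674%.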
